A study of Mus musculus with 12 samples.

Results

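Txnip, the alpha-arrestin genes Arrdc1 to Arrdc4 and the glucose sensor genes Mlxip and Mlxipl were followed in 12 RNA sequencing libraries of mouse embryonic fibroblasts. They are 7 of the 32721 genes in the deposited table and were listed by name, with earlier results on these libraries known. The values that drew attention to the list were the fall of Txnip after starvation and its genotype difference. Levels, differences and calls of the listed genes are therefore given as a description, without p-values. Of the 7 genes, 6 passed the filter on low values and Mlxipl did not.

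All libraries came from a Vps15f/f line, in which the alleles of the class 3 phosphoinositide 3-kinase subunit VPS15 are floxed. Cells that received adeno-GFP are called WT and cells that received adeno-CRE are called Vps15KO, and both were analysed 5 days after transduction. The culture medium was DMEM with 4.5 g/L glucose and 10% fetal bovine serum, and cells were 90% confluent. Each genotype was then kept in this basal medium or moved for 2 h to EBSS, a balanced salt solution with no amino acids, which gave 4 groups of 3 libraries. EBSS also lacks serum and holds less glucose than high glucose medium, so the loss of amino acids, serum and glucose cannot be told apart. Cre expression and loss of Vps15 cannot be told apart either, because no Cre-expressing cells with intact alleles are among the groups. The library names carry pLEX_GFP and pLEX_CRE, while the design names adenoviral vectors. The labels do not say that replicates came from separate cultures, so p-values may measure technical spread only.

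Txnip (thioredoxin-interacting protein) and the ARRDC proteins share the arrestin fold. They act as adaptors that bring membrane proteins such as glucose transporters and receptors to endocytosis and to ubiquitin ligases of the NEDD4 family, and Txnip also binds thioredoxin. Mlxip encodes MondoA and Mlxipl encodes ChREBP, transcription factors that pair with Mlx, respond to glucose 6-phosphate and bind E-box-type elements. Txnip and Arrdc4 are their best known targets in many cell types, and the Txnip protein restrains glucose uptake.

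The promoters of Txnip and Arrdc4 are shown because these are the listed genes best known as MondoA targets. All 7 genes matched RefSeq promoter windows of GRCm38.p6 (10 windows of 300 bases, from 250 before to 50 after each annotated start). The bases before the start are given 5′ to 3′ on the strand of the gene, Txnip at chr3:96557707-96557956 on the plus strand and Arrdc4 at chr7:68749239-68749488 on the minus strand. Capitals mark motifs found on either strand: the tandem E-box-like element (CACGNG, 5 bases of any kind, CACGNG, where N is any base), the E-box CACGTG, the FOXO element TGTTTAC and the CCAAT box (CCAAT).
Txnip: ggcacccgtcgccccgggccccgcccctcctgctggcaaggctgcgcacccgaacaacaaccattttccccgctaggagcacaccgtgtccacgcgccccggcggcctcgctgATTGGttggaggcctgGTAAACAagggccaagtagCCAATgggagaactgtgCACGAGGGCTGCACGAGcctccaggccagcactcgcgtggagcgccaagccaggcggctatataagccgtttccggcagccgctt
Arrdc4: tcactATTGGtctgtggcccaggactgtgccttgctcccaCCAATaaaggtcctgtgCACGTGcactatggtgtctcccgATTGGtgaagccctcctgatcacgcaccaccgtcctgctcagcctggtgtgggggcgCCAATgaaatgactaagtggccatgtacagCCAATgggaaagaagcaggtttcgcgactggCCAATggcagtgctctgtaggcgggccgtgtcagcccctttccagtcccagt
In Txnip the tandem element read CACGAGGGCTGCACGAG and lay at positions -85 to -69 from the start (chr3:96557872-96557888). A FOXO element on the opposite strand lay at -121 to -115, between 2 CCAAT boxes. The Arrdc4 window had no tandem element. It held an E-box at -193 to -188 (chr7:68749426-68749431) and 6 CCAAT boxes. The marked motifs did not overlap each other. The tandem element was found in 0.0487% of 32851 RefSeq windows of this length, the E-box in 7.15%, the FOXO element in 3.65% and the CCAAT box in 37.4%. Of the other listed genes, Mlxipl had an E-box and a CCAAT box in 1 of its windows, Arrdc2 had 3 CCAAT boxes and Mlxip had 2. The same CCAAT box lay in 2 of the 3 Arrdc3 windows, and the Arrdc1 window had none of the 4 motifs. A match describes the letters only and was not tested for binding.

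The libraries held 21278921 to 21698584 reads in genes. Pik3r4 (chr9:105642995-105687655), which encodes VPS15, averaged 875 ± 10.3 (SD, n = 3) normalized counts in WT basal and 895 ± 62.7 in WT EBSS. It averaged 658 ± 36.7 in Vps15KO basal (75.1% of WT) and 632 ± 35.9 in Vps15KO EBSS (70.7%), and these reads cover the whole gene, with the deleted part not given in the sources used here. WT basal replicate 2 and WT EBSS replicate 1 stood apart from the other libraries of their groups, with chi-square values per gene of 19.1 or more in WT basal, where the other pair had 3.03, and of 7.73 and 11.1 in WT EBSS, where the other pair had 3.65. Printed results that lose or gain a call without both are given with that value. Summed normalized counts of 12 fibroblast markers were 573280 to 600734 in WT basal, 511505 to 546937 in WT EBSS, 286124 to 289256 in Vps15KO basal and 284662 to 298007 in Vps15KO EBSS. Summed counts of 7 macrophage and leukocyte markers were 961 to 1004 and 858 to 946 in the WT groups, and 3014 to 3897 and 2683 to 3357 in the Vps15KO groups, mostly from Cd68, while Ptprc and Adgre1 were at or near 0 in all groups. Endothelial, epithelial and muscle markers summed to at most 40.2 in any library, with the muscle regulator Myog at 0 throughout. Epithelial markers summed to 1.95 to 11.8 in fed and 25.4 to 35.7 in starved libraries. Endothelial markers summed to 17.6 to 25.7 in Vps15KO libraries and to less in every WT library. Adipocyte sums were 613 to 769 in WT basal, 471 to 511 in WT EBSS, 537 to 548 in Vps15KO basal and 356 to 400 in Vps15KO EBSS. They came almost wholly from Fabp4, while Adipoq, Plin1 and Cidec averaged at most 1.97 normalized counts in any group. Muscle markers summed to 8.47 to 23.0 in WT basal, 5.09 to 13.3 in WT EBSS, 25.5 to 40.2 in Vps15KO basal and 21.7 to 26.7 in Vps15KO EBSS. The fibroblast sums and the Cd68, endothelial and muscle levels moved with genotype, and the fibroblast sums in WT also moved with the medium. Single fibroblast markers did not all follow their sum, and Thy1 averaged at most 2.06 in any group. Of 11 tested, 1 was higher and 9 lower for genotype in basal medium (29.3% and 29.2% of all genes). In EBSS 0 were higher and 8 lower (29.4% and 27.8%). After EBSS 3 rose and 2 fell in WT (31.4% and 31.3%), and 4 rose and 3 fell in Vps15KO (25.9% and 26.1%). The epithelial levels moved with the medium and Fabp4 with both. The part of these markers in the results was not tested. In bulk RNA, fewer cells of a type and less RNA per cell cannot be told apart.

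Txnip (chr3:96557957-96561857, GRCm38) had the highest level per kilobase of exon of the listed genes in each group and was lowest in starved Vps15KO cells. In WT basal it had 16896, 16713 and 16800 normalized counts (reads divided by the size factor of the library), a mean of 16803 ± 91.5 (SD, n = 3). After EBSS the WT libraries had 8049, 9826 and 9438, a mean of 9104 ± 934. The Vps15KO libraries had 11580, 11530 and 12111 in basal medium, a mean of 11740 ± 322, and 2311, 2703 and 2844 after EBSS, a mean of 2619 ± 276. No library of any group overlapped another group, and the order was WT basal, Vps15KO basal, WT EBSS, Vps15KO EBSS. Set against WT basal, the levels were 54.2% in WT EBSS, 69.9% in Vps15KO basal and 15.6% in Vps15KO EBSS. The share of all reads in genes fell from 0.0773% in WT basal to 0.0123% in Vps15KO EBSS.

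On the deposited log2 scale, EBSS changed Txnip by -0.89 ± 0.08 (SE) in WT and by -2.16 ± 0.08 in Vps15KO. The starved Vps15KO level was 22.3% of the fed one. Among the 14279 genes tested, this was the lowest log2 difference in Vps15KO cells, which is the value the gene was picked on, while in WT it stood at place 379 from the lowest. The genotype difference was -0.52 ± 0.08 in basal medium and -1.79 ± 0.08 in EBSS, where the Vps15KO level was 28.8% of WT. The change after EBSS differed between genotypes by -1.27 ± 0.11 (Vps15KO minus WT). Without the 2 WT libraries that stood apart, the change in WT was -0.81 and the difference between genotypes -1.35. With quantile scaling, the genotype difference in basal medium was smaller (-0.35). The difference between genotypes in the change after EBSS was then larger (-1.44).

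**Figure D1:**
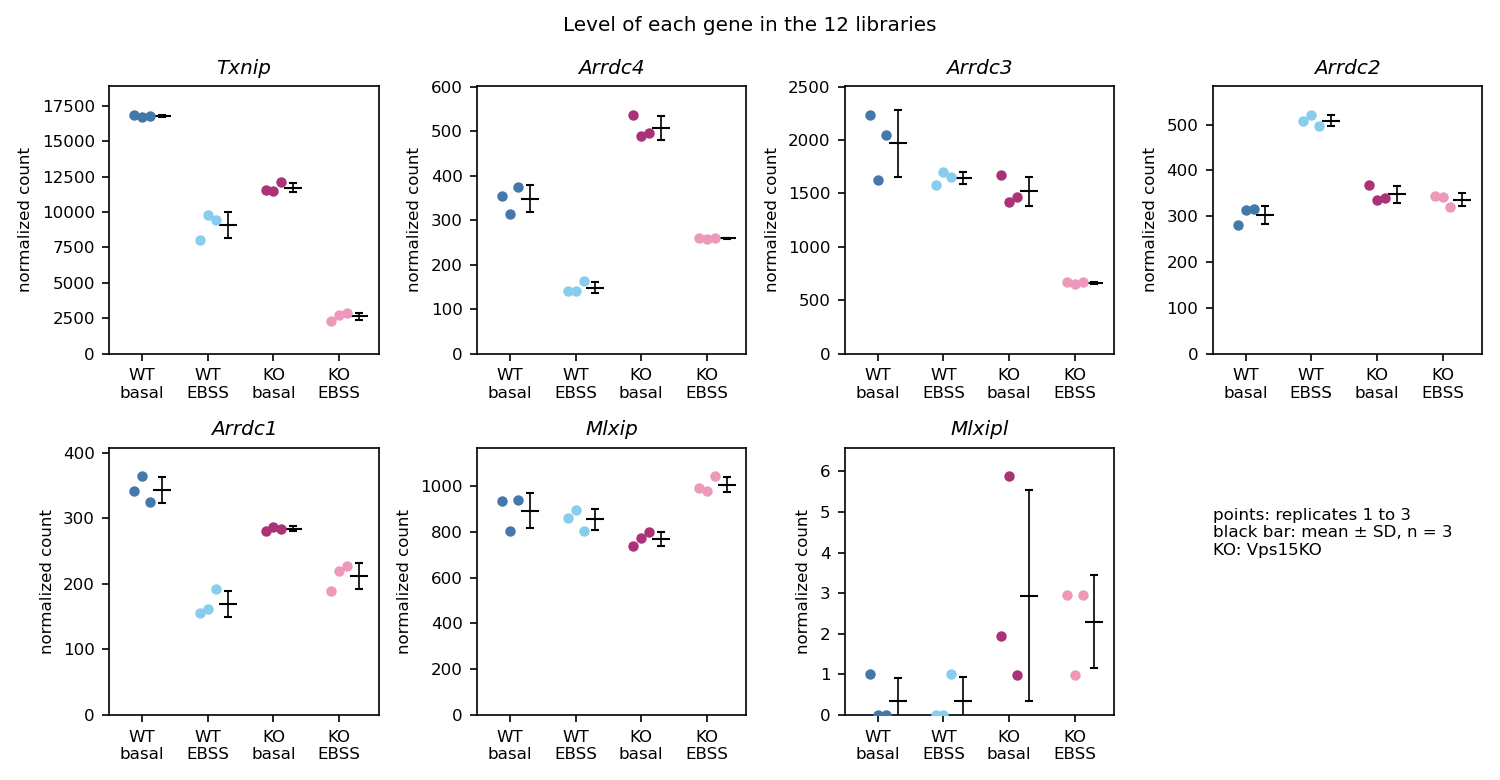
Normalized counts (vertical axes, each starting at 0) of the 7 genes in WT and Vps15KO (KO) cells, fed or starved in EBSS for 2 h. Points are libraries and black bars are the mean ± SD (n = 3), cut at 0 for Mlxipl; Txnip in starved Vps15KO cells (2311 to 2844) lies below every other library, while Arrdc2 is highest in starved WT cells (497 to 522).

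Arrdc4 (chr7:68736994-68749238), an arrestin-domain adaptor known to share the glucose response of Txnip, was lower after EBSS in both genotypes but higher in Vps15KO than in WT. The WT libraries had 355, 314 and 374 normalized counts in basal medium (mean 348 ± 30.4, SD, n = 3) and 141, 141 and 163 after EBSS (148 ± 12.7). The Vps15KO libraries had 537, 489 and 496 in basal medium (507 ± 25.9) and 260, 257 and 259 after EBSS (259 ± 1.10). No groups overlapped, and the fed Vps15KO libraries were the highest. EBSS changed Arrdc4 by -1.09 ± 0.08 (log2, SE) in WT and by -0.90 ± 0.08 in Vps15KO, to 42.7% and 51.0% of the fed level. The genotype difference was 0.51 ± 0.08 in basal medium and 0.71 ± 0.08 in EBSS, opposite in sign to that of Txnip. The change after EBSS differed between genotypes by 0.19 ± 0.12, a 95% interval of -0.06 to 0.44, and was not called.

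Arrdc3 (chr13:80883384-80896042), an adaptor known for the turnover of integrin beta 4, was lowest in starved Vps15KO cells, as Txnip was. Its normalized counts were 2237, 1623 and 2048 in WT basal (1969 ± 315, SD, n = 3) and 1579, 1698 and 1654 in WT EBSS (1644 ± 60.3). They were 1673, 1421 and 1462 in Vps15KO basal (1519 ± 135) and 670, 655 and 669 in Vps15KO EBSS (664 ± 8.27). The starved Vps15KO libraries lay below all others, and the remaining 3 groups overlapped, with WT basal replicate 2 low in its group. EBSS changed Arrdc3 by -1.16 ± 0.09 (log2, SE) in Vps15KO, to 43.8% of the fed level. In WT the change was -0.24 ± 0.09, and its call was lost without WT basal replicate 1 (-0.15), WT basal replicate 3 (-0.21), WT EBSS replicate 1 (-0.22) or WT EBSS replicate 3 (-0.25), and, at the same value of -0.24, without the filter, without the variance trend and in a fit of the WT groups only. The change was larger without WT basal replicate 2 (-0.38), without both WT libraries that stood apart (-0.35) and with the trends of each library with transcript length and GC content removed (-0.45). The genotype difference was -0.36 ± 0.09 in basal medium and -1.27 ± 0.09 in EBSS, and the change after EBSS differed between genotypes by -0.91 ± 0.13.

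Arrdc2 (chr8:70835129-70839720), another arrestin-domain adaptor, was highest in starved WT cells. The WT libraries had 281, 313 and 316 normalized counts in basal medium (303 ± 19.7, SD, n = 3) and 508, 522 and 497 after EBSS (509 ± 12.3). The Vps15KO libraries had 369, 335 and 340 in basal medium (348 ± 18.3) and 345, 343 and 320 after EBSS (336 ± 14.0). The starved WT libraries lay above all 9 others, and the 2 Vps15KO groups overlapped. EBSS changed Arrdc2 by 0.70 ± 0.07 (log2, SE) in WT, to 168% of the fed level, and by -0.05 ± 0.07 in Vps15KO, which was not called. The change after EBSS differed between genotypes by -0.75 ± 0.11, and the starved genotypes differed by -0.56 ± 0.07. In basal medium the genotype difference was 0.18 ± 0.07. This call was lost without WT basal replicate 1 (0.13), without Vps15KO basal replicate 1 (0.14), 2 (0.21) or 3 (0.20), and without WT EBSS replicate 2, Vps15KO EBSS replicate 1 or Vps15KO EBSS replicate 2 (0.18 each). It was also lost with the replicate number as a block (0.18), with quantile or equal-median scaling (0.15 each), without the filter and in a fit of the groups compared only, and the difference was larger with the length and GC trends removed (0.33).

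Arrdc1 (chr2:24925352-24935335), known for the budding of small vesicles from the plasma membrane, was lower after EBSS in both genotypes. Its normalized counts were 342, 364 and 324 in WT basal (343 ± 20.2, SD, n = 3) and 155, 162 and 192 in WT EBSS (169 ± 19.5). They were 280, 287 and 283 in Vps15KO basal (284 ± 3.47) and 189, 220 and 227 in Vps15KO EBSS (212 ± 20.4). The fed groups did not overlap the starved ones, whereas the 2 starved groups overlapped. EBSS changed Arrdc1 by -0.92 ± 0.09 (log2, SE) in WT, to 49.4% of the fed level, and by -0.38 ± 0.09 in Vps15KO, to 74.7%. The change differed between genotypes by 0.54 ± 0.13, opposite in sign to Txnip and Arrdc3. The genotype difference was -0.25 ± 0.09 in basal medium and 0.28 ± 0.09 in EBSS. The first call was lost without WT basal replicate 2 (-0.21), Vps15KO basal replicate 1 (-0.24) or Vps15KO basal replicate 3 (-0.25), and also without both WT libraries that stood apart (-0.21). The second was lost without WT EBSS replicate 1 (0.23) or Vps15KO EBSS replicate 3 (0.24). Removing the trends of each library with transcript length and GC content ended the call after EBSS in Vps15KO (-0.19) and that of genotype in basal medium (-0.08).

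Mlxip (chr5:123394521-123457932), the gene of MondoA, moved over a narrower range. Its normalized counts were 935, 804 and 941 in WT basal (893 ± 77.0, SD, n = 3), 862, 896 and 805 in WT EBSS (855 ± 46.0), 736, 771 and 798 in Vps15KO basal (769 ± 31.0), and 992, 980 and 1043 in Vps15KO EBSS (1005 ± 33.3). The starved Vps15KO libraries lay above all others, and the WT groups overlapped. EBSS changed Mlxip by 0.38 ± 0.07 (log2, SE) in Vps15KO, to 131% of the fed level (0.21 with the length and GC trends removed). In WT the change was -0.06 ± 0.07, a 95% interval of -0.21 to 0.09, and was not called, but it was called with the length and GC trends removed (-0.19). The change after EBSS differed between genotypes by 0.44 ± 0.10. The genotype difference in basal medium, -0.21 ± 0.07, lost its call without WT basal replicate 1 or 3 (-0.17 each), without Vps15KO basal replicate 1 (-0.18), with the length and GC trends removed (-0.14) and in a fit of the groups compared only (-0.21). The difference in EBSS, 0.23 ± 0.07, lost its call without WT EBSS replicate 3 (0.19). Mlxipl (chr5:135089890-135139768), the gene of ChREBP, had 18 reads over the 12 libraries. The reads were 1, 0 and 0 in WT basal, 0, 0 and 1 in WT EBSS, 2, 6 and 1 in Vps15KO basal, and 3, 1 and 3 in Vps15KO EBSS. A count of 0 allows up to 3 reads for counting error, so no fold is given, and ChREBP transcripts were near the detection limit in all groups.

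**Figure D2:**
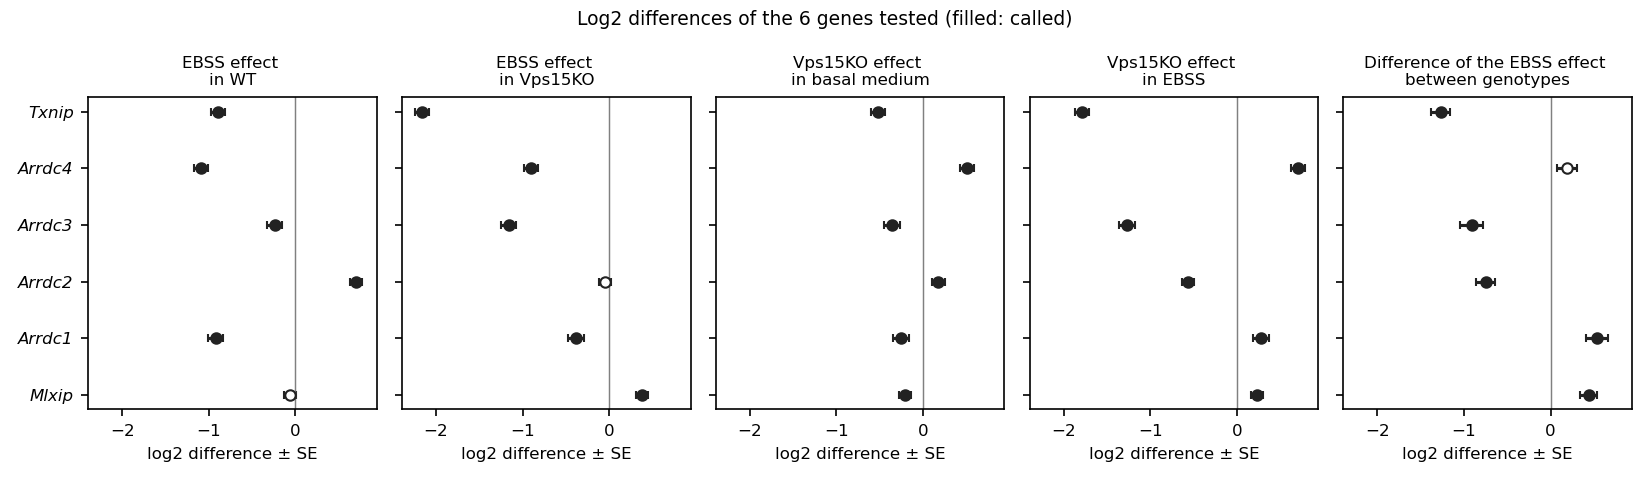
Log2 differences (horizontal axes, bars are the SE of the linear model, 3 libraries a group) of the 6 genes tested in 5 comparisons, with filled points for genes called and open points for those not called. Txnip lies left of 0 in each panel, while Arrdc4 lies left of 0 for EBSS and right of 0 for Vps15KO.

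Over the 6 genes tested, 5 were called after EBSS in WT (1 higher and 4 lower), beside 62.7% of all genes tested, with 31.4% higher and 31.3% lower. The groups did not overlap for 4 of the 6, beside 65.2% of all genes. After EBSS in Vps15KO 5 were called (1 higher, 4 lower), beside 52.0% of all genes (25.9% higher, 26.1% lower), and 5 did not overlap, beside 63.0%. For genotype in basal medium 6 were called (2 higher, 4 lower), beside 58.5% (29.3% higher, 29.2% lower), and 5 did not overlap, beside 61.7%. This count fell to 3 without Vps15KO basal replicate 1. For genotype in EBSS 6 were called (3 higher, 3 lower), beside 57.2% (29.4% higher, 27.8% lower), and 5 did not overlap, beside 66.3%. The change after EBSS differed between genotypes for 5 (2 higher, 3 lower), beside 17.8% of all genes (9.55% higher, 8.24% lower). The median log2 difference of the 6 genes was -0.57 and -0.64 for EBSS in WT and Vps15KO, beside -0.02 for all genes in each. It was -0.23 and -0.17 for genotype in basal medium and EBSS, beside -0.01 and -0.00. The genes were chosen with these comparisons known, so nothing is read from the counts. The comparisons share groups of libraries, and their values are therefore set side by side only.

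**Figure D3:**
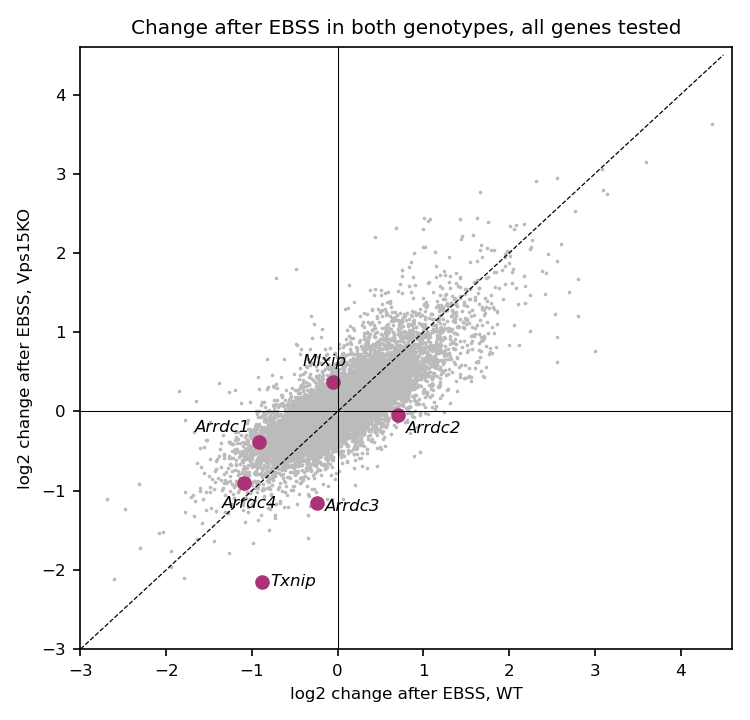
Log2 change after EBSS in WT (horizontal axis) against Vps15KO (vertical axis) for the 14279 genes tested (grey), with the 6 listed genes in purple and a dashed line where both changes are equal. Txnip (-0.89, -2.16), Arrdc3 (-0.24, -1.16) and Arrdc2 (0.70, -0.05) lie below the line. Arrdc4 (-1.09, -0.90) lies close to it, and Arrdc1 and Mlxip lie above it.

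Levels of different genes were compared as normalized counts per kilobase of exon. In WT basal the order was Txnip 5944, Arrdc3 475, Arrdc1 206, Arrdc2 129, Mlxip 111, Arrdc4 86.1 and Mlxipl 0.0922 normalized counts per kilobase, and no neighbours in it overlapped over libraries. In WT EBSS the order was Txnip 3221, Arrdc3 396, Arrdc2 216, Mlxip 106, Arrdc1 102 and Arrdc4 36.8, with Mlxip and Arrdc1 overlapping. In Vps15KO basal, Txnip stood at 4153, Arrdc3 at 366, Arrdc1 at 170, Arrdc2 at 148, Arrdc4 at 126 and Mlxip at 95.1 normalized counts per kilobase. In Vps15KO EBSS, Txnip stood at 927, Arrdc3 at 160, Arrdc2 at 143, Arrdc1 at 127, Mlxip at 124 and Arrdc4 at 64.0, with Arrdc1 overlapping both of its neighbours. Txnip and Arrdc3 kept the first and second place in all 4 groups, whereas Arrdc2 stood above Arrdc1 in the starved groups and below it in the fed groups. Among the genes tested, ranked by normalized count with no correction for length, Txnip stood at 158 in WT basal, 366 in WT EBSS, 218 in Vps15KO basal and 1773 in Vps15KO EBSS.

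Likeness of pattern was measured as Pearson r of the deposited log2 values over the 12 libraries, which share 4 group means, so r is a description. Genes most like Txnip included Gng10 (r = 0.987), Cpt2 (0.985), Fam222b (0.981) and Tmem101 (0.976). Cpt2, a mitochondrial enzyme of fatty acid import, differed by -0.49 ± 0.07 (log2, SE) after EBSS in WT and by -0.88 ± 0.07 in Vps15KO, given with no test because the gene was picked for its likeness to Txnip. The genes most unlike it were Ier5 (-0.989), Plpbp (-0.988), and Arid5a, Nup50 and Mafg (-0.987 each). Of the listed genes, Arrdc3 was nearest to Txnip (r = 0.958), followed by Arrdc1 (0.562), Arrdc4 (0.318), Arrdc2 (-0.043) and Mlxip (-0.637). Arrdc4 was most like Nyap1 (0.987), Pot1a (0.987) and Amn1 (0.986), and Arrdc3 was most like Zfp799 (0.987), Fam102a (0.983) and Mterf1a (0.975). Arrdc2 was most like Lpgat1 (0.943), Tnfrsf1b (0.942) and Tmem128 (0.940). Arrdc1 was most like Spindoc (0.990), Shkbp1 (0.987) and Ppp1r18 (0.986), and genes most like Mlxip included Ube4bos3 (0.925) and Hjurp (0.916).

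Among the partners and rivals of MondoA in the MYC and MAX network, more genes rose than fell after EBSS. Of 10 tested, 6 rose and 1 fell in WT (median log2 difference 0.44), beside 31.4% of all genes higher and 31.3% lower. In Vps15KO 5 rose and 2 fell (median 0.27), beside 25.9% and 26.1% of all genes. Mnt, a repressor that pairs with Max or Mlx, rose from 1078 ± 80.3 to 3230 ± 280 normalized counts (SD, n = 3) in WT and from 1762 ± 49.8 to 4094 ± 88.8 in Vps15KO (log2 1.56 ± 0.07 and 1.20 ± 0.07, SE; limma, adjusted p = 2.36e-12 and 8.57e-11). Max, the shared partner of the network, rose from 1391 ± 96.4 to 3037 ± 75.9 in WT and from 1459 ± 30.9 to 2940 ± 124 in Vps15KO (limma, adjusted p = 4.00e-11 and 2.30e-10). The gene that fell in WT was Mlx, the partner of MondoA and ChREBP, named after its values were seen. It had 579 ± 25.1 in WT basal and 381 ± 5.46 in WT EBSS, and 615 ± 47.8 and 464 ± 32.4 in Vps15KO (-0.57 ± 0.07 and -0.39 ± 0.07; limma, adjusted p = 3.04e-06 and 0.000312). For genotype, 4 rose and 2 fell in basal medium (29.3% and 29.2% of all genes) and 5 rose and 2 fell in EBSS (29.4% and 27.8%). Myc was higher in Vps15KO by 1.20 ± 0.07 in basal medium and 1.58 ± 0.07 in EBSS (limma, adjusted p = 8.51e-11 and 2.15e-12). Mxi1, a Myc antagonist, rose after EBSS in WT by 0.43 ± 0.08 and fell by 0.39 ± 0.08 in Vps15KO (limma, adjusted p = 8.74e-05 and 0.000316). Its changes differed between genotypes by -0.82 ± 0.11 (limma, adjusted p = 4.50e-05).

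Known glucose-response targets of MondoA and ChREBP, other than the listed genes, moved in both directions after EBSS, and more were higher than lower in Vps15KO. Of 20 tested, 7 rose and 6 fell after EBSS in WT (median 0.01, with 31.4% and 31.3% of all genes), and 4 rose and 9 fell in Vps15KO (median -0.14, with 25.9% and 26.1% of all genes). For genotype in basal medium, 14 rose and 3 fell (median 0.62, with 29.3% of all genes higher and 29.2% lower). For genotype in EBSS, 14 rose and 2 fell (median 0.55, with 29.4% of all genes higher and 27.8% lower). Hk2, the hexokinase that traps glucose in the cell, had 847 ± 52.8 normalized counts (SD, n = 3) in WT basal, 1572 ± 70.5 in WT EBSS, 2182 ± 54.9 in Vps15KO basal and 5092 ± 396 in Vps15KO EBSS. It was higher in Vps15KO by 1.34 ± 0.07 in basal medium and 1.68 ± 0.07 in EBSS (log2, SE; limma, adjusted p = 1.48e-11 and 7.89e-13). Klf10 and Bhlhe40, transcriptional repressors, rose after EBSS in both genotypes. Klf10 rose by 1.01 ± 0.08 in WT and 2.44 ± 0.08 in Vps15KO, and the changes differed by 1.43 ± 0.12 (limma, adjusted p = 2.46e-07). Bhlhe40 rose from 4397 ± 235 to 21941 ± 794 normalized counts in Vps15KO, and its changes differed between genotypes by 1.63 ± 0.11 (limma, adjusted p = 2.66e-08), opposite in sign to Txnip.

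Among 11 genes of glucose uptake and phosphorylation, 1 rose and 6 fell after EBSS in WT (median -0.24, with 31.4% of all genes higher and 31.3% lower). In Vps15KO 1 rose and 5 fell after EBSS (median -0.25, with 25.9% of all genes higher and 26.1% lower). The hexokinase gene Hk2 was counted with the glucose-response targets and not here. It rose after EBSS by 0.87 ± 0.07 in WT and 1.21 ± 0.07 in Vps15KO (log2, SE; limma, adjusted p = 3.37e-09 and 5.74e-11). For genotype in basal medium, 6 rose and 1 fell (median 0.26, with 29.3% of all genes higher and 29.2% lower). For genotype in EBSS, 9 rose and 1 fell (median 0.33, with 29.4% of all genes higher and 27.8% lower). Slc2a1, the gene of the glucose transporter GLUT1, a known Txnip cargo, was higher in Vps15KO in both media. It averaged 2905 ± 78.2 normalized counts (SD, n = 3) in WT basal and 5267 ± 223 in Vps15KO basal, and 2780 ± 173 and 5081 ± 126 after EBSS. The genotype difference was 0.85 ± 0.06 in basal medium and 0.87 ± 0.06 in EBSS (log2, SE; limma, adjusted p = 9.93e-10 and 6.57e-10). Its change after EBSS was -0.06 ± 0.06 in WT and -0.05 ± 0.06 in Vps15KO and did not pass the test, although with quantile scaling it was called in WT (-0.17). Slc37a4, the glucose 6-phosphate transporter of the endoplasmic reticulum, fell after EBSS by 0.75 ± 0.09 in WT and by 0.66 ± 0.09 in Vps15KO (limma, adjusted p = 1.27e-06 and 9.26e-06).

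Of 15 genes of the thioredoxin system and of Txnip binding partners, 3 rose and 5 fell after EBSS in WT (median -0.14, with 31.4% of all genes higher and 31.3% lower). In Vps15KO 2 rose and 11 fell after EBSS (median -0.25, with 25.9% of all genes higher and 26.1% lower). For genotype, 6 rose and 5 fell in basal medium (29.3% and 29.2% of all genes), and 3 rose and 7 fell in EBSS (29.4% and 27.8%). Txnrd1, the cytosolic thioredoxin reductase, had 2939 ± 214 normalized counts (SD, n = 3) in WT basal, 4420 ± 54.3 in WT EBSS, 7079 ± 418 in Vps15KO basal and 9342 ± 265 in Vps15KO EBSS. It was higher in Vps15KO by 1.26 ± 0.06 in basal medium and 1.07 ± 0.06 in EBSS (log2, SE; limma, adjusted p = 1.44e-11 and 9.32e-11). Prdx4, the peroxiredoxin of the endoplasmic reticulum, was lower in Vps15KO, at -0.73 ± 0.06 and -0.76 ± 0.06 (limma, adjusted p = 1.50e-08 and 7.80e-09). Ddit4, an mTORC1 inhibitor whose protein binds Txnip, went from 1665 ± 136 to 2065 ± 50.8 after EBSS in WT and from 1809 ± 107 to 1489 ± 45.4 in Vps15KO, and these changes differed by -0.58 ± 0.09 (limma, adjusted p = 0.000288).

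The NEDD4-family ligases and adaptors, to which alpha-arrestins recruit their cargo, had 11 genes tested. After EBSS 6 rose and 0 fell in WT (median 0.27, with 31.4% and 31.3% of all genes). In Vps15KO 5 rose and 0 fell (median 0.21, with 25.9% and 26.1% of all genes; 3 called in all with the length and GC trends removed). For genotype, 6 rose and 3 fell in basal medium (29.3% and 29.2% of all genes), and 6 rose and 1 fell in EBSS (29.4% and 27.8%). Nedd4l was higher in Vps15KO by 1.42 ± 0.08 in basal medium and 1.31 ± 0.08 in EBSS (log2, SE; limma, adjusted p = 1.27e-10 and 3.24e-10). Nedd4, its paralog, was lower in starved Vps15KO cells, at -0.44 ± 0.07 (limma, adjusted p = 3.39e-05). Among 6 other arrestin-fold genes, 1 rose and 3 fell after EBSS in WT (31.4% and 31.3% of all genes), and 1 rose and 1 fell in Vps15KO (25.9% and 26.1%). The count of 2 in Vps15KO became 4 without WT basal replicate 2, 5 without both WT libraries that stood apart and 1 without Vps15KO basal replicate 2. Vps26a, the arrestin-like subunit of retromer, rose from 1506 ± 94.9 to 3289 ± 97.3 normalized counts in WT and from 2315 ± 96.9 to 4067 ± 249 in Vps15KO (1.11 ± 0.06 and 0.80 ± 0.06; limma, adjusted p = 6.50e-11 and 7.50e-09). Arrb2, the gene of beta-arrestin 2, fell by 0.74 ± 0.08 after EBSS in WT (limma, adjusted p = 4.99e-07) and changed by -0.20 ± 0.08 in Vps15KO. That change did not pass the test, but passed it without both WT libraries that stood apart (-0.20), without WT basal replicate 1 or 2 (-0.20 each) and without Vps15KO EBSS replicate 3 (-0.27). It also passed with the replicate number as a block (-0.20; limma, adjusted p = 0.0479), the stricter filter, quantile (-0.27) or equal-median scaling, voom on worked-back reads, and a fit of the groups compared only.

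Of 12 cargo and vesicle partners of the alpha-arrestins, 6 rose and 2 fell after EBSS in WT (31.4% and 31.3% of all genes), and 5 rose and 1 fell in Vps15KO (25.9% and 26.1%). For genotype, 4 rose and 5 fell in basal medium (29.3% and 29.2% of all genes), and 1 rose and 5 fell in EBSS (29.4% and 27.8%). Slc11a2, an iron transporter and known ARRDC1 and ARRDC4 cargo, was higher in Vps15KO by 1.35 ± 0.06 (log2, SE) in basal medium and 1.53 ± 0.06 in EBSS (limma, adjusted p = 4.26e-12 and 7.61e-13). Egfr was lower in Vps15KO, at -0.55 ± 0.06 and -0.35 ± 0.06 (limma, adjusted p = 4.12e-07 and 7.71e-05).

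Among 19 upstream regulators of Txnip, 9 rose and 3 fell after EBSS in WT (median 0.19, with 31.4% and 31.3% of all genes), and 8 rose and 2 fell in Vps15KO (median 0.15, with 25.9% and 26.1% of all genes). For genotype, 6 rose and 5 fell in basal medium (29.3% and 29.2% of all genes), and 6 rose and 4 fell in EBSS (29.4% and 27.8%). Foxo1, a transcription factor of the FOXO class, went from 718 ± 6.29 to 1820 ± 37.6 normalized counts (SD, n = 3) in WT and from 700 ± 25.3 to 1285 ± 36.7 in Vps15KO. It rose by 1.31 ± 0.06 and 0.85 ± 0.06 (log2, SE; limma, adjusted p = 2.50e-12 and 9.71e-10), and the changes differed by -0.46 ± 0.08 (limma, adjusted p = 0.000784). Nfyc, a subunit of the factor that binds CCAAT boxes, rose by 0.84 ± 0.07 and 0.91 ± 0.07 (limma, adjusted p = 2.41e-08 and 1.38e-08). Ep300, a histone acetyltransferase, rose by 1.33 ± 0.11 and 1.02 ± 0.11 (limma, adjusted p = 8.07e-09 and 3.82e-07). Prkaa2, a catalytic subunit of the energy sensor AMPK, was higher in fed Vps15KO cells by 1.10 ± 0.12 (limma, adjusted p = 3.27e-07).

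**Figure D4:**
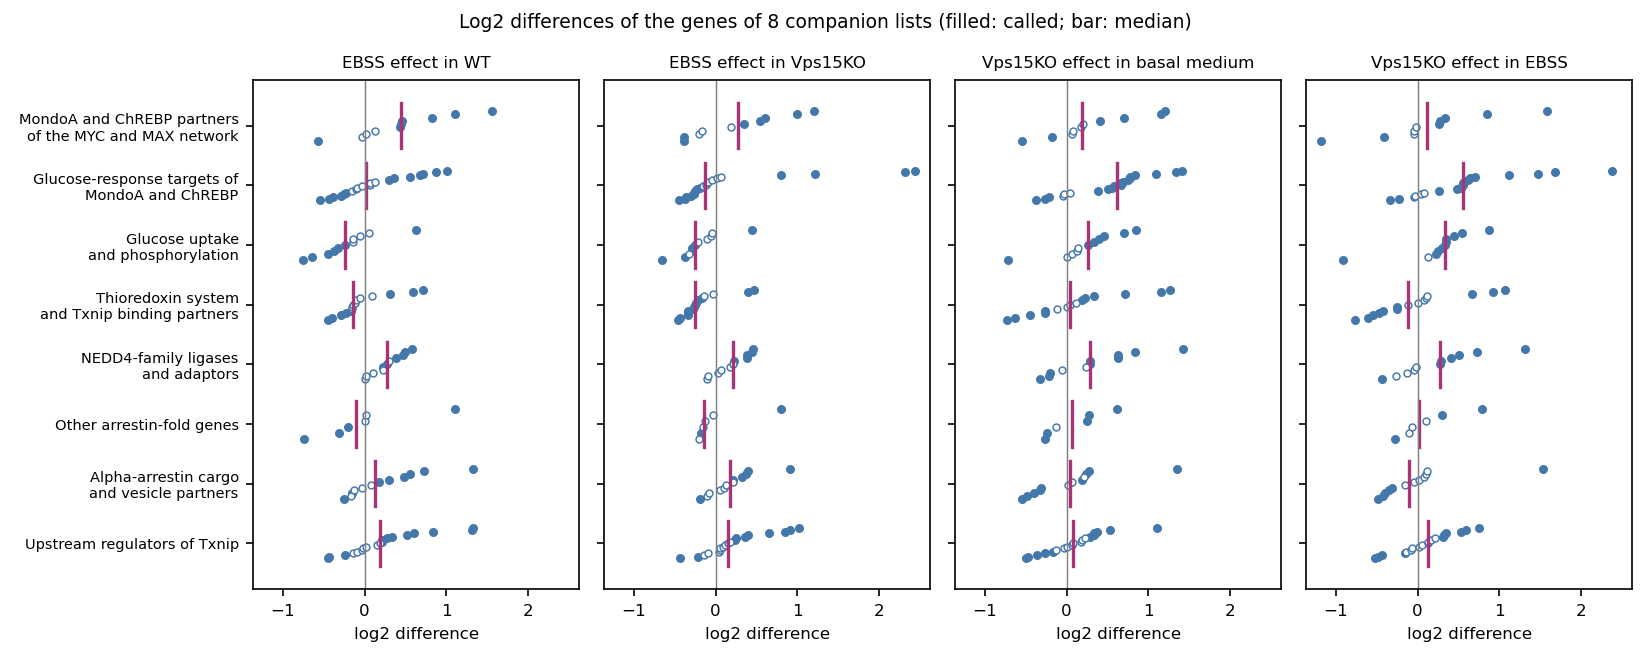
Log2 differences (horizontal axes) of the tested genes of 8 companion lists in 4 comparisons, with filled points for genes called, open points for genes not called and a purple bar at the median of each list. The glucose-response targets centre on 0.01 after EBSS in WT and on 0.62 for Vps15KO in basal medium.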

How the data were processed

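RNA of 12 libraries was measured by poly-A sequencing. The authors deposited log2 values, a variance-stabilizing transformation of counts divided by size factors, as the floor and the values themselves show. Per the submitters' processing notes, the tools were STAR 2.7.10b, featureCounts, limma and DESeq2 and the build mm10, without roles, and strand use in counting is not given in the sources used here. The transformation was inverted from its floor (3.83), which gave whole reads for 100% of values (tolerance 0.001) and size factors of 0.945 to 1.02. Normalized counts are worked-back reads over the size factor, with 0 columns unmapped. Genes whose mean exceeded the floor by 1 or more (14279) entered limma 3.58.1 in R 4.3.3, with a mean per group over all libraries, a variance trend, no block and two-sided Benjamini-Hochberg adjustment over all genes per comparison. Genes were called at adjusted p under 0.05. In simulated data for EBSS in WT, 50 of 14279 genes were changed at each fold, none of them with a low mean count. Of these changes, 54% of 1.25-fold, 94% of 1.5-fold and 100% of 2-fold ones were recovered, with 6.45% of calls false. In the real comparison 62.7% of genes were called, so these shares are not the recovery or error rate of the printed calls. The listed genes and the companion lists were chosen with earlier results of these data known. Of each companion list and comparison up to 3 genes of smallest p could be named, besides Pik3r4 and the genes of most like pattern (5 highest and 5 lowest r with Txnip, 3 highest with each other listed gene, predicted genes left out). A few list symbols were not analysed here, and some genes the rule would name are not reported here. Alternatives were other filters, scalings, transformations, thresholds, a replicate block, length and GC trends (13527 genes with values) and each library left out.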

Additional observations from a re-analysis of the deposited data

Results flagged for a closer look

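The change after EBSS differed between genotypes, by the interaction term of the limma fit over all genes, for the genes below. They are not all the genes called, and 17.8% of all genes tested were called for this term. Mnt (-0.35) and Fnip1 (-0.53), for example, were called too. Each value is the log2 change in Vps15KO minus that in WT. Among the listed genes, whose choice used these data, the difference was -1.27 for Txnip, -0.91 for Arrdc3, -0.75 for Arrdc2, 0.54 for Arrdc1 and 0.44 for Mlxip.

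In the MYC and MAX network the difference was 0.38 for Myc, -0.63 for Mxd4 and -0.82 for Mxi1 (limma, adjusted p = 0.0111, 0.00345 and 4.50e-05). Among glucose-response targets it was 1.63 for Bhlhe40, 1.43 for Klf10 and -0.59 for Scd1, the stearoyl-CoA desaturase (adjusted p = 2.66e-08, 2.46e-07 and 0.000578). It was 0.27 for the hexokinase Hk1 and -0.58 for Ddit4 (adjusted p = 0.0411 and 0.000288). The call of Hk1 was lost without any of the 3 WT EBSS libraries, any of the 3 Vps15KO EBSS libraries, or Vps15KO basal replicate 1 or 3 (0.24 to 0.29). It was also lost without both WT libraries that stood apart (0.18), and with no filter, equal medians or no variance trend.

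For the ligase adaptor Ndfip1 the difference was -0.32, for Arrb2 0.54 and for Vps26a -0.31 (limma, adjusted p = 0.0286, 0.00414 and 0.0224). The call of Ndfip1 was lost without WT EBSS replicate 2 (-0.28), replicate 1 (-0.30) or 3 (-0.32) of Vps15KO basal, or replicate 2 (-0.32) or 3 (-0.29) of Vps15KO EBSS. That of Vps26a was lost without WT EBSS replicate 1 (-0.29) or 2 (-0.31), replicate 1 (-0.28) of Vps15KO basal, or replicate 2 (-0.29) or 3 (-0.28) of Vps15KO EBSS. It was -0.41 for Notch1 (adjusted p = 0.0315), and the call of Notch1 was lost without WT EBSS replicate 1 (-0.30) or 2 (-0.42), replicate 1 (-0.40) or 2 (-0.39) of Vps15KO basal, or replicate 2 (-0.40) or 3 (-0.36) of Vps15KO EBSS. It was also lost without both WT libraries that stood apart (-0.29), and with no filter or no variance trend, which also ended the call of Ndfip1. The call of Vps26a was lost with no variance trend, and that of Ndfip1 with quantile scaling (-0.28). Among regulators of Txnip it was -0.46 for Foxo1, 0.30 for Hsf1, the heat shock factor, and 0.59 for Prkab2, an AMPK subunit (adjusted p = 0.000784, 0.0175 and 0.00105), and the call of Hsf1 was lost without Vps15KO EBSS replicate 3 (0.27).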

How the results depend on the processing

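Over 25 other settings, no listed gene changed direction in a comparison where it was called. Of 744 values for single listed genes, 683 kept their side of the threshold, 60 lost a call and 1 gained one. Requiring a log2 change of at least 1 as well as the call left 1, 2, 0, 2 and 1 of the listed genes (EBSS in WT, EBSS in Vps15KO, genotype in basal medium, genotype in EBSS, difference of the EBSS changes) and 797, 499, 696, 748 and 118 of all genes. At adjusted p under 0.01, 3 listed genes were called for genotype in basal medium (6 at 0.05), and 1227 genes in all for the difference of the EBSS changes (2540 at 0.05). Leaving out each library in turn gave 3 to 6 listed genes for genotype in basal medium, the lowest without Vps15KO basal replicate 1. For the difference of the EBSS changes, leaving out each library kept 4 of 10 genes of the MYC and MAX network. It gave 4 to 6 of 20 glucose-response targets and 2 to 6 of 19 regulators of Txnip. It gave 0 to 2 of 11 genes for glucose uptake and for NEDD4-family ligases, and 1 to 2 of 15 for the thioredoxin list. It gave 1 to 2 of 6 other arrestin-fold genes and 1 to 3 of 12 cargo and vesicle partners. Of all genes, 1863 to 3175 were called, and 17.8% in the main fit. With the replicate number as a block, 8939, 7391, 8358, 8140 and 2535 genes were called (8954, 7419, 8353, 8174 and 2540 without it). Among the listed genes the block changed the call of Arrdc2 for genotype in basal medium only, and among the other genes printed that of Arrb2 for EBSS in Vps15KO. Same-numbered libraries correlated in their residuals from -0.155 to -0.0418 for EBSS in WT and from -0.0734 to 0.0125 for EBSS in Vps15KO. Libraries of different number correlated there from -0.0405 to 0.142 and from -0.0737 to 0.0789. For genotype, same-numbered libraries correlated from 0.0825 to 0.26 in basal medium and from 0.039 to 0.124 in EBSS. Those of different number correlated from -0.212 to 0.106 and from -0.111 to -0.012. The labels do not say that a number marks a shared culture, so the main fit took no pairs. Whether numbers mark pairs between genotypes was not tested. With the length and GC trends removed, the changes after EBSS of Egfr in WT (-0.11, from 0.17) and of Nedd4 in Vps15KO (-0.01, from 0.23) turned direction without a call, and the cause was not tested. Depth limits Mlxipl, which had 18 reads.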

Other observations

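The tandem E-box-like element was found in RefSeq promoter windows of 15 genes, Txnip included, and 10 of them were tested. Of these 10, 2 were called higher and 4 lower after EBSS in WT, 2 higher and 2 lower after EBSS in Vps15KO, 4 higher and 2 lower for genotype in basal medium, and 3 higher and 2 lower for genotype in EBSS. Txnip is among the lower ones each time. Of all genes tested, 31.4% were higher and 31.3% lower after EBSS in WT, 25.9% and 26.1% after EBSS in Vps15KO, 29.3% and 29.2% for genotype in basal medium, and 29.4% and 27.8% for genotype in EBSS. For the difference of the EBSS changes, 0 of the 10 were higher and 2 lower, Txnip included, beside 9.55% and 8.24% of all genes. Fnip1, a partner of folliculin, changed by 2.08 ± 0.10 (log2, SE) after EBSS in WT and by 1.55 ± 0.10 in Vps15KO, opposite in sign to Txnip. Its changes differed between genotypes by -0.53 ± 0.14 (Vps15KO minus WT), the same sign as for Txnip (-1.27). Fem1b, a substrate receptor of a ubiquitin ligase, changed by -0.19 ± 0.07 after EBSS in WT and by -0.35 ± 0.07 in Vps15KO. The call in WT was lost without WT basal replicate 3 (-0.17), WT EBSS replicate 2 (-0.19) or WT EBSS replicate 3 (-0.12). It was also lost in a fit of the groups compared only (-0.19). These genes were named after their values were seen, and sharing the element was not tested for a link with their changes.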
